A study of Rattus norvegicus with 14 samples.

Results

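DNA methylation was described in the windows of the rat genome build rn7 that lie on unplaced scaffolds, which are assembled stretches not assigned to any chromosome. A window was a member if its sequence name was not 1 to 20, X, Y or MT. This rule gave 349 of 194367 windows, on 52 scaffolds, and 220 of the 349 had a value in all 14 samples and are called common windows. The samples were left soleus muscle of female rats aged 23 to 24 months from generation 44 of lines selected for high (HCR, 6 samples) or low (LCR, 8 samples) running capacity. Both lines derive from the genetically heterogeneous N:NIH stock, all rats had free access to standard chow, and no treatment is named. Levels were measured by reduced representation bisulfite sequencing (RRBS), which cuts DNA with MspI and reads mainly CpG-rich fragments. Each value is the percent methylation of a library in a window of 1000 bp. No label says that the samples were separate animals, and every p-value here speaks only of the variation among the 14 libraries. Bulk muscle mixes fibres with other cells, so a change in cell mix and a change within one cell type cannot be told apart. The deposited values carry no read counts, and the depth behind each level is unknown.

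In mammals, methyl groups are placed on cytosines followed by guanine. Most of the genome is heavily methylated, and CpG islands, which often mark promoters, stay unmethylated. Sequence that assemblers cannot place is often repetitive or duplicated, with copies that differ in number between animals. A read from one copy can then be assigned to another. The rn7 build comes from the inbred Brown Norway rat, and the lines studied here have another ancestry. Sequences, genes and repeats of these scaffolds on rn7 were not analysed here, so windows are given by position only.

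Windows on unplaced scaffolds had a higher mean level than the autosomes and the X chromosome in each of the 14 libraries, and a lower one than the Y chromosome. Over the 220 common windows the mean level was 51.5% ± 0.886 in the 6 HCR libraries and 51.5% ± 1.31 in the 8 LCR libraries (SD here and after each ±). Over the 131799 common windows of the autosomes HCR libraries had 35.6% ± 0.984 and LCR libraries 34.5% ± 1.04. Library by library, unplaced scaffolds stood 15.04 to 17.9 percentage points above the autosomes. On the X chromosome the levels were 47.5% ± 0.925 in HCR and 46.7% ± 1.07 in LCR, and over the 15 common windows of the Y chromosome, to which reads of these female rats had been assigned, they were 59.8% ± 1.56 in HCR and 59.4% ± 1.93 in LCR. These differences between regions are given as values without a test.

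**Figure D1:**
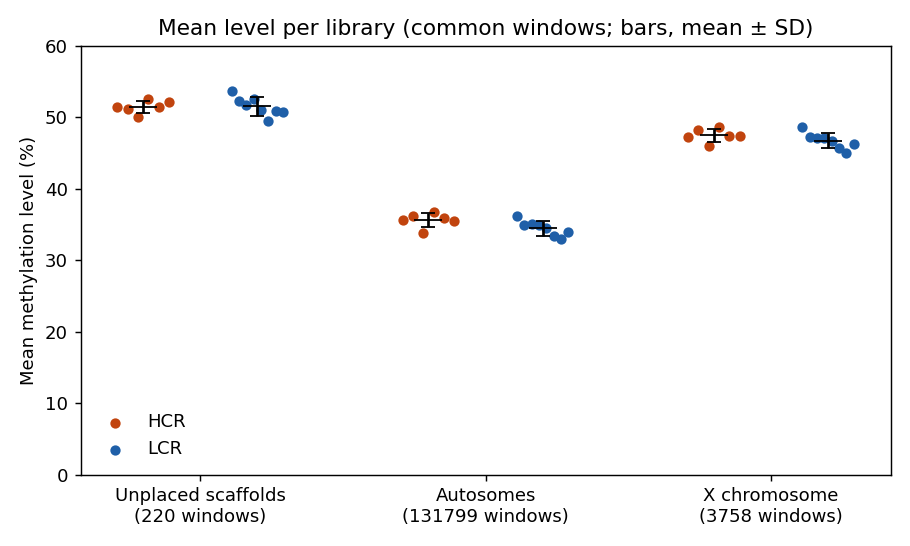
Mean methylation level (%, y axis) of each library over the common windows of unplaced scaffolds, autosomes and the X chromosome, HCR in red and LCR in blue, with the mean ± SD of each line in black. Libraries sit between 49.5% and 53.7% on unplaced scaffolds and between 33.0% and 36.7% on autosomes.

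The distribution of levels held fewer low and more high windows than that of the autosomes. Of the 349 windows 110 (31.5%) had a mean of at least 70%, against 13.1% of the autosomal windows. A further 117 (33.5%) lay at 50 to 70%, against 27.4% on autosomes, and 60 (17.2%) lay at 30 to 50%, against 21.7%. Only 27 windows (7.74%) lay at 10 to 30% and 35 (10.03%) under 10%, against 17.2% and 20.7% of the autosomal windows. The median window stood at 60.8% on unplaced scaffolds and at 42.3% on autosomes.

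The windows were unevenly shared among scaffolds. MU150189.1 held 82 (23.5%), the 10 scaffolds with most windows held 233, and 16 scaffolds held a single window. Scaffold levels differed widely. Among the 19 scaffolds with at least 3 common windows the mean over common windows ran from 27.96% on JACYVU010000704.1 to 72.8% on JACYVU010000630.1. The next highest were JACYVU010000619.1 at 71.7% and JACYVU010000642.1 at 71.2%. The next lowest were JACYVU010000738.1 at 31.7% and MU150189.1 at 43.7%. Between them lay MU150192.1 with 64.5% ± 0.85 in HCR and 63.9% ± 1.96 in LCR, and JACYVU010000707.1 with 56.8% ± 1.17 in HCR and 56.3% ± 1.61 in LCR. Of the 43 scaffolds with a common window, 5 had a mean below the autosomal mean of 34.96%, with both means taken over common windows. The order changed over all windows, with or without missing values. JACYVU010000738.1 was then the lowest of the 19 at 31.7%, before JACYVU010000704.1 at 35.7% and JACYVU010000706.1 at 43.99%. MU150189.1 stood at 49.2%, and JACYVU010000630.1 was again the highest at 76.8%.

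**Figure D2:**
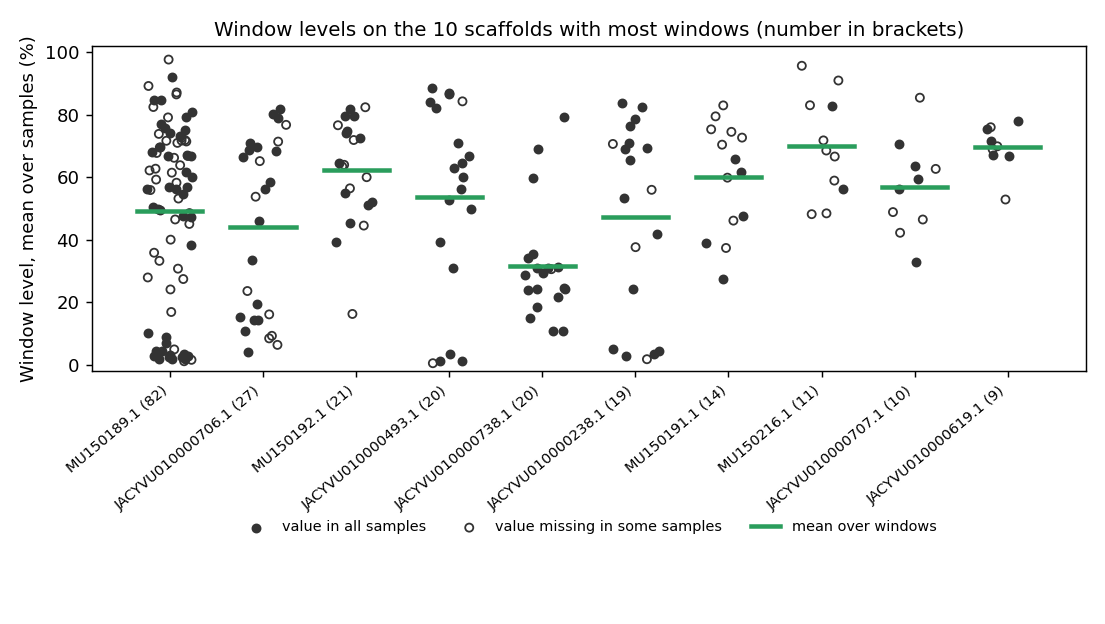
Level of each window (%, mean over samples, y axis) on the 10 scaffolds with most windows, whose number is in brackets. Filled points have a value in all samples, open points lack some, and green lines are means over all windows, filled and open. Windows under 10% lie on MU150189.1 (17), JACYVU010000238.1 (5), JACYVU010000493.1 (4) and JACYVU010000706.1 (4). Of the 20 windows of JACYVU010000738.1, 17 crowd between 10.7% and 35.5%, and JACYVU010000619.1 has none under 52.9%.

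The 35 windows under 10% fell on 8 scaffolds, and 17 of them lay on MU150189.1. They formed 19 runs, of which 10 held 2 or more adjacent windows and together 26 windows. The longest runs had 4 windows each. On MU150189.1 at 1000001 to 1004000 the mean was 4.29%, with 4.79% in HCR and 3.92% in LCR. On JACYVU010000238.1 at 150001 to 154000 the mean was 3.81%, with 4.35% in HCR and 3.41% in LCR. Runs of 3 windows lay on MU150189.1 at 76001 to 79000 (2.99%) and at 574001 to 577000 (3.13%). The lowest pair of windows was on JACYVU010000493.1 at 38001 to 40000 (1.03%), where no sample exceeded 2.28%. Unmethylated and highly methylated windows could adjoin: on MU150189.1 the pair at 59001 to 61000 (4.33%) was followed by a window with a mean of 92.01%. The highest single values in a run were on JACYVU010000706.1 at 200001 to 202000, with a mean of 7.38% and up to 27.3% in one sample.

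Of the 349 windows 2 differed between the lines by limma at a Benjamini-Hochberg adjusted p under 0.05 over all 194367 windows. This is 0.573% of the members, against 0.366% of all windows, so that the share is near the background. One window was lower in HCR, where the background is 0.125%, and one was higher, where it is 0.242%. When library means were set equal the count was again 2, both lower in HCR. Over all windows 324 were then higher and 325 lower in HCR, against 470 higher and 242 lower without this centring. With LCR replicates 1 and 2 left out, the window lower in HCR was the only one called (limma adjusted p = 0.00398).

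Values of the lines did not overlap in 3 of the 349 windows (0.860%), against 0.868% of all windows. HCR lay above LCR in 2 of them (background 0.643%) and below in 1 (background 0.225%). They were the 2 called windows and that at 86001 to 87000 on MU150216.1, where HCR averaged 85.7% and LCR 81.4% (limma adjusted p = 0.294), which was chosen after its values were seen. At an unadjusted p under 0.05 there were 43 windows (12.3%), against 9.94% of all, 22 with the higher level in HCR and 21 with the lower.

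The window lower in HCR lay at 61001 to 62000 on JACYVU010000704.1. HCR samples had from 38.8% to 48.1% with a median of 42.3%, and LCR samples had from 59.5% to 65.3% with a median of 62.2%. The highest HCR sample therefore stood more than 10 points below the lowest LCR sample. The means were 43.3% ± 3.47 for HCR and 62.1% ± 1.94 for LCR. The difference was -18.9 points, or -1.09 on the log2 logit scale (SE 0.11, limma adjusted p = 0.000365). The log2 logit is the log2 ratio of methylated to unmethylated share, with 0.01 added to each. Its neighbour at 60001 to 61000 averaged 33.5% ± 6.36 in HCR samples and 25.7% ± 10.6 in LCR samples, the other direction, and was not called (limma adjusted p = 0.646). The next measured window of this scaffold, at 75001 to 76000, stood at 63.8% in HCR and 63.7% in LCR. The call of the window at 61001 was lost only in the fit with a replicate block (limma adjusted p = 0.107). That fit used the 12 samples numbered 1 to 6 and gave a difference of -1.10 on the log2 logit scale. The same samples without the block also gave -1.10 (limma adjusted p = 0.00263).

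The window higher in HCR lay at 61001 to 62000 on MU150189.1, beside the unmethylated pair at 59001 to 61000. HCR samples were almost fully methylated, from 95.98% to 100% with a median of 97.8%. LCR samples ranged from 73.3% to 95.02% with a median of 88.6%. The lines did not overlap, but the highest LCR sample, replicate 2, came within 1 point of the lowest HCR sample. The means were 97.8% ± 1.42 in HCR and 87.7% ± 6.66 in LCR, a difference of 10.1 points or 2.23 on the log2 logit scale (SE 0.44, limma adjusted p = 0.0445). This call lies close to the threshold and was lost in 21 of 27 other settings, among them the omission of any single sample except LCR replicate 2 (limma adjusted p = 0.0362 without it). Over the other settings the adjusted p ran from 0.0183 to 0.367.

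**Figure D3:**
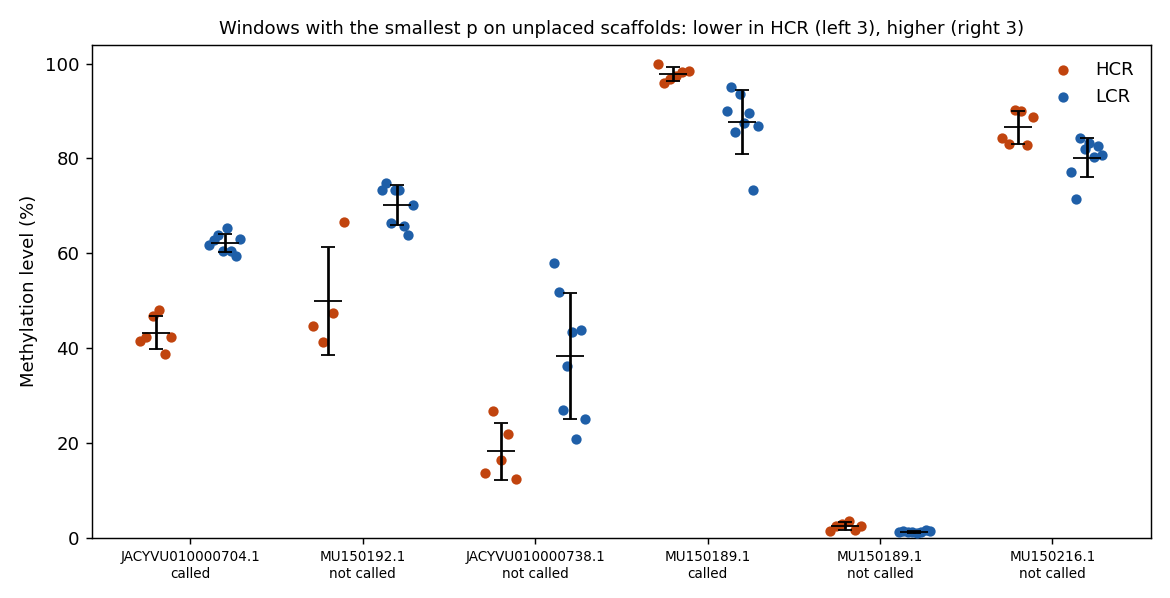
Methylation level (%, y axis) of each sample in the 6 windows with the smallest p on unplaced scaffolds, HCR in red and LCR in blue, with mean ± SD in black. The left 3 are lower in HCR and the right 3 higher. The called window of JACYVU010000704.1 has all HCR samples at or below 48.1% and all LCR samples at or above 59.5%.

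The next windows by p did not pass the threshold. At 243001 to 244000 on MU150192.1 only 4 HCR samples had a value, at 41.2%, 44.6%, 47.4% and 66.7%, and the 8 LCR samples had 63.9% to 74.8% with a median of 71.7%. HCR replicate 6 alone reached the LCR range. The difference was -20.2 points (limma adjusted p = 0.0706), and it passed without HCR replicate 6 (0.00509) and with each library centred (0.0413). At 69001 to 70000 on JACYVU010000738.1 the 5 HCR samples with a value had 12.5% to 26.7% with a median of 16.4%, and LCR samples had 20.8% to 58.0% with a median of 39.8% (limma adjusted p = 0.187). At 43001 to 44000 on MU150216.1 HCR samples averaged 86.5% ± 3.51 and LCR samples 80.2% ± 4.17 (limma adjusted p = 0.26). At 59001 to 60000 on MU150189.1 both lines were nearly unmethylated, at 2.41% ± 0.847 for HCR and 1.29% ± 0.18 for LCR (limma adjusted p = 0.173).

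The line difference of the mean level over the unplaced windows was smaller than its error. HCR minus LCR was -0.0821 points (SE 0.589) over the common windows, against 1.13 points (SE 0.544) on autosomes and 0.768 points (SE 0.535) on X. The common windows include 19 of JACYVU010000738.1, at -4.94 points, and 18 of JACYVU010000706.1, at -2.50 points. Of the 43 scaffolds 25 were higher and 18 lower in HCR, and with scaffolds weighted equally the difference was 0.305 points. The mean was not taken without these 2 scaffolds, so the value is no trait of unplaced scaffolds in general. Unplaced scaffolds stood above the autosomes by 15.9 ± 0.555 points in HCR and by 17.1 ± 0.606 points in LCR. The median over windows gave a difference of 1.13 points, so that mean and median differ in sign, and without LCR replicates 1 and 2 the mean differed by 0.448 points. Single windows were higher in HCR in 189 cases and lower in 160, which is 54.2% higher, against 62.6% of autosomal windows. Differences of at least 10 points were found in 29 windows (8.31%, against 6.46% of all windows), 12 higher and 17 lower in HCR.

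Line differences were not alike in the classes of levels, by counts without a test. Under 10%, 22 of 35 windows (62.9%) were higher in HCR, against 66.1% on autosomes. Of the 27 windows at 10 to 30%, 3 (11.1%) were higher in HCR and the median difference was -4.00 points, against 65.02% higher and a median of 1.57 points on autosomes. Of these 27, 18 lay on JACYVU010000738.1 or JACYVU010000706.1, with 1 higher in HCR and a median of -4.93 points. The other 9 had 2 higher in HCR and a median of -2.27 points. In the class of 30 to 50%, 27 of 60 windows (45%) were higher in HCR and the median difference was -0.42 points, against 62.01% higher on autosomes. In the classes of 50 to 70% and of at least 70%, 72 of 117 (61.5%) and 65 of 110 windows (59.1%) were higher in HCR, against 60.5% and 59.5% on autosomes.

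No scaffold differed between the lines in its mean level after adjustment. In an exact permutation test with all 3003 assignments of the line labels, two-sided, 0 of the 43 scaffolds and 0 of the 23 chromosomes passed a Benjamini-Hochberg adjusted p of 0.05 over these 66 sequences (background 0.0%). At an unadjusted p under 0.05 there were 8 scaffolds and 4 chromosomes, together 18.2% of the sequences. Of the 43 scaffolds 25 were higher and 18 lower in HCR, which turned to 15 and 28 when each library was centred. The smallest adjusted p was 0.0659, on MU150201.1, whose single window had 41.5% ± 2.22 in HCR and 37.0% ± 1.96 in LCR. This scaffold was chosen after its values were seen. On JACYVU010000704.1 the means were 26.3% ± 0.745 in HCR and 29.2% ± 1.97 in LCR (exact p = 0.00533, adjusted p = 0.132). Its 6 common windows include the called one, which alone differed by -18.9 points, so this is no separate result. The scaffold mean was not taken without the called window. On MU150189.1 the means were 44.2% ± 0.372 in HCR and 43.4% ± 0.571 in LCR (exact p = 0.015, adjusted p = 0.194).

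Among the 19 scaffolds with at least 3 common windows, the largest higher values in HCR were 2.12 points on MU150191.1 (49.5% ± 2.94 in HCR, 47.4% ± 4.35 in LCR), 2.12 points on JACYVU010000238.1 (49.9% ± 1.10 in HCR, 47.8% ± 1.92 in LCR) and 1.51 points on JACYVU010000493.1 (55.7% ± 1.59 in HCR, 54.2% ± 0.818 in LCR). The largest lower values among them, beside that of JACYVU010000704.1, were -4.94 points on JACYVU010000738.1 (28.9% ± 6.87 in HCR, 33.8% ± 7.68 in LCR) and -2.76 points on JACYVU010000705.1 (69.6% ± 3.28 in HCR, 72.4% ± 2.86 in LCR). The adjusted exact permutation p-values of these 5 ran from 0.181 to 0.528. Scaffolds with 1 or 2 common windows reached wider differences, from -5.70 points on MU150210.1 (35.8% ± 2.46 in HCR, 41.5% ± 10.02 in LCR) to 11.9 points on MU150190.1 (72.4% ± 10.4 in HCR, 60.5% ± 8.70 in LCR), each with 1 common window.

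Among the 19 scaffolds with at least 3 common windows, JACYVU010000738.1 had the widest median range of a window over samples, 39.01 points, and the largest SD of the scaffold mean over libraries, 7.51 points. Its 20 windows lay within 18001 to 76000, and the 3 nearest the start were methylated at 50% or more. The following windows had 10.7% to 35.5%, and there the libraries ran apart along the scaffold. This subset and the next were chosen after the values were seen, so they are described without a test. Over the 16 common windows of 10 to 50% the library means of HCR replicates 1 to 6 were 18.4%, 16.9%, 11.2%, 33.2%, 23.6% and 26.96%. Those of LCR replicates 1 to 8 were 42.4%, 32.3%, 29.8%, 28.6%, 21.3%, 13.2%, 27.2% and 20.2%. Each line had a library near the bottom of the range, HCR replicate 3 and LCR replicate 6, and the range of both lines together was 31.3 points. Means over fewer windows vary more, and on MU150191.1 the 3 windows of this class ranged over 22.3 points, while on MU150189.1 the 6 windows ranged over 6.22 points. On autosomes the mean over all 50415 windows of the class was 28.3% in HCR replicate 3 and 27.7% in LCR replicate 6, near the lowest library value of 27.02%. The highest library values there were 33.5% in HCR replicate 4 and 32.8% in LCR replicate 1, the libraries that were also highest on JACYVU010000738.1.

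The same libraries led and trailed in window after window. LCR replicate 1 had the highest value in 9 of the 16 windows and lay above the median of the samples in 15. HCR replicate 3 had the lowest value in 9 and lay below the median in all 16, and LCR replicate 6 lay below it in 14. Of the 50415 autosomal windows of this class, LCR replicate 1 was highest in 4702 and above the median in 32811. There HCR replicate 3 was lowest in 5922 and below the median in 30769, and LCR replicate 6 was below it in 34186. These libraries thus leaned the same way on autosomes, in smaller shares of the windows. The median Pearson r between 2 of the 16 windows across the 14 samples was 0.58 over 120 pairs, and 61.7% of pairs exceeded 0.5. On autosomes, pairs of windows of this class up to 57 kb apart had a median r of 0.09, and 8.10% exceeded 0.5. These are descriptions, since all windows were read in the same libraries. The line difference over the 16 windows was -5.16 points, with 21.7% ± 7.85 in HCR and 26.9% ± 8.83 in LCR. Leaving out LCR replicates 1 and 2 reduced it to -1.66 points.

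**Figure D4:**
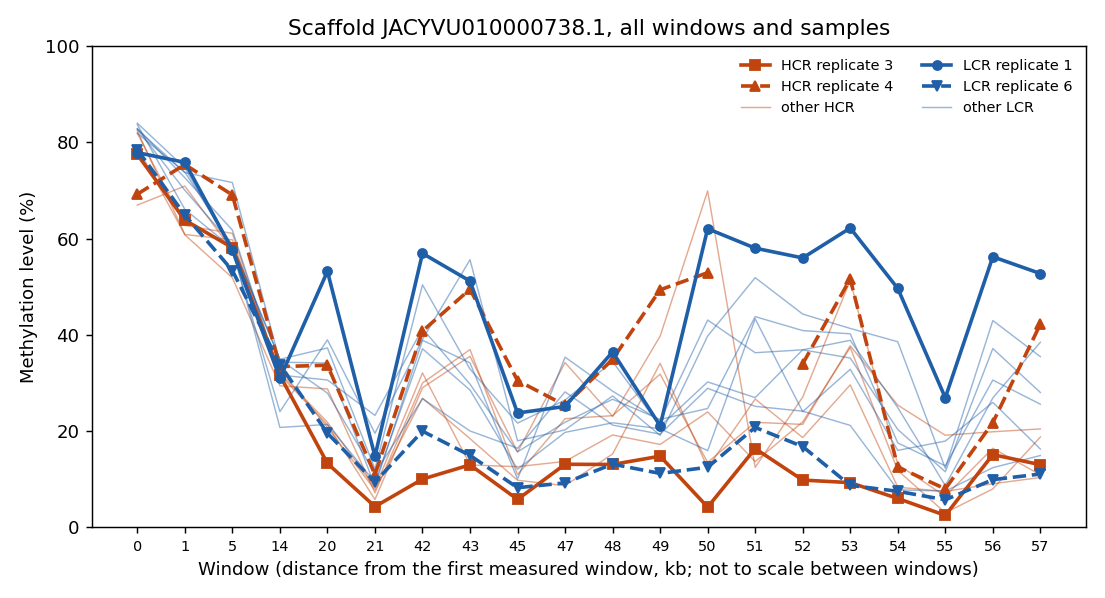
Methylation level (%, y axis) of each sample in the 20 windows of JACYVU010000738.1, in order of distance from the first window (kb, x axis, windows drawn evenly spaced and not to scale), HCR in red and LCR in blue, with thick lines for 4 named samples. LCR replicate 1 runs highest in 9 of the 16 windows of 10 to 50% with values in all samples, and HCR replicate 3 lies below the sample median in all 16.

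JACYVU010000706.1 showed a like order of libraries in its 7 common windows of 10 to 50%, which lay within 76001 to 113000. HCR replicates 1 to 6 had 14.6%, 21.4%, 11.3%, 15.7%, 26.2% and 15.4%. LCR replicates 1 to 8 had 31.5%, 33.8%, 26.7%, 28.5%, 19.7%, 13.8%, 27.5% and 20.97%. HCR replicate 3 and LCR replicate 6 were again lowest and LCR replicates 1 and 2 highest, but HCR replicate 4, second highest on JACYVU010000738.1, was not high here. All 7 windows were lower in HCR, 2 at an unadjusted p under 0.05 and 0 called by limma (smallest adjusted p = 0.438). The median r over 21 pairs of windows was 0.44. The 10 common windows of this scaffold at 50% or more ranged over only 5.53 points between libraries, against 22.5 points for these 7.

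Spread between samples of a line was set beside that of autosomal windows of the same class of level. The median within-line SD on the log2 logit scale was 0.77 in the 20 common windows of 10 to 30%, against 0.56 in autosomal windows of that class, a ratio of 1.37. Of all 27 windows of this class, with or without missing values, 18 lay on JACYVU010000738.1 or JACYVU010000706.1, where libraries kept a like order over windows. The ratio was not taken without these scaffolds, so it cannot be read as a trait of unplaced scaffolds in general. In the class of 30 to 50% the ratio was 0.783, at 50 to 70% it was 0.824 and at 70% or more it was 0.878. Under 10% it was 1.09. Outside the class of 10 to 30% the scaffold windows above 30% were thus less variable than autosomal windows of like level, in these values without a test.

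The widest ranges over samples were seen in 3 windows. At 1018001 to 1019000 on MU150189.1 HCR samples had 70.1%, 75.1%, 79.1%, 10%, 57.3% and 81.3%. The 7 LCR samples with a value, replicates 2 to 8, had 72.7%, 35.7%, 71.7%, 28.7%, 29.7%, 1.52% and 17.6%, with a median of 29.7%. HCR averaged 62.2% ± 26.9 and LCR 36.8% ± 26.6, which did not pass the test (limma adjusted p = 0.607). At 68001 to 69000 on JACYVU010000738.1 samples ran from 4.22% in HCR replicate 3 to 69.9% in HCR replicate 6, and LCR samples from 12.5% to 62.0%. At 26001 to 27000 on MU150191.1 HCR samples had 46.9% to 80.0% with a median of 52.8%, and LCR samples had 18.2% to 67.2% with a median of 38.1% (limma adjusted p = 0.376).

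The share of missing values was above the autosomal share in 7 libraries and below it in the other 7. Of the 349 windows 129 (36.96%) lacked a value in at least one sample, against 30.1% on autosomes. Of these 129, 37 lacked values in HCR only, 39 in LCR only and 53 in both lines. HCR samples lacked 5.97% ± 2.69 of the windows (SD, n = 6) and LCR samples 6.23% ± 4.34 (SD, n = 8). On autosomes the shares were 5.21% ± 2.26 in HCR and 5.09% ± 3.67 in LCR. The line difference of -0.263 points was smaller than the spread between samples, and without LCR replicates 1 and 2 it was 1.19 points. The 6 LCR samples left lacked 4.78% ± 3.49 of the unplaced windows and 5.37% ± 3.92 of the autosomal windows. Over all scaffolds 299 of 4886 values were missing, and JACYVU010000738.1 lacked a single one of its 280.

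LCR replicates 1 and 2 stood apart in how many missing windows they shared. The first lacked 26 of the 349 windows (7.45%), although it lacked 1.45% of the autosomal windows. LCR replicate 2 lacked 48 (13.8%), against 7.02% on autosomes. HCR replicate 2 also lacked a larger share here, 6.02% against 2.48% on autosomes. LCR replicate 2 lacked 10 of the 21 windows missing in HCR replicate 2 (47.6%, against 27.7% on autosomes). Of the 26 windows missing in LCR replicate 1, 23 (88.5%) were also missing in LCR replicate 2, which is 47.9% of those missing there. On autosomes the shared windows made up 48.2% of those missing in LCR replicate 1 and 9.99% of those missing in LCR replicate 2.

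Most of these shared gaps lay on MU150189.1. Of its 82 windows LCR replicate 1 lacked 20 and LCR replicate 2 lacked 24, while the other samples lacked 0 to 11. The 18 windows missing in both lay between 180001 and 1035000, among 60 measured windows, and 5 of the 18 had a value in each of the other 12 samples. They included windows of every kind, with means from 1.10% to 97.6%, 13 of them at 50% or more. Between them lay windows that both libraries did cover. At 882001 to 883000, next to a window missing in both, LCR replicates 1 and 2 had 62.9% and 62.5%, the 6 HCR samples had 79.4% to 87.3%, and the other 6 LCR samples had 77.1% to 84.2%. This window was chosen after its values were seen and does not stand for the covered windows. Over the 43 common windows of the scaffold LCR replicates 1 and 2 averaged 44.5% and 43.3%, within the 42.6% to 44.9% of the 14 libraries. Whether reads or the sequence itself were lacking in LCR replicates 1 and 2 was not tested.

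**Figure D5:**
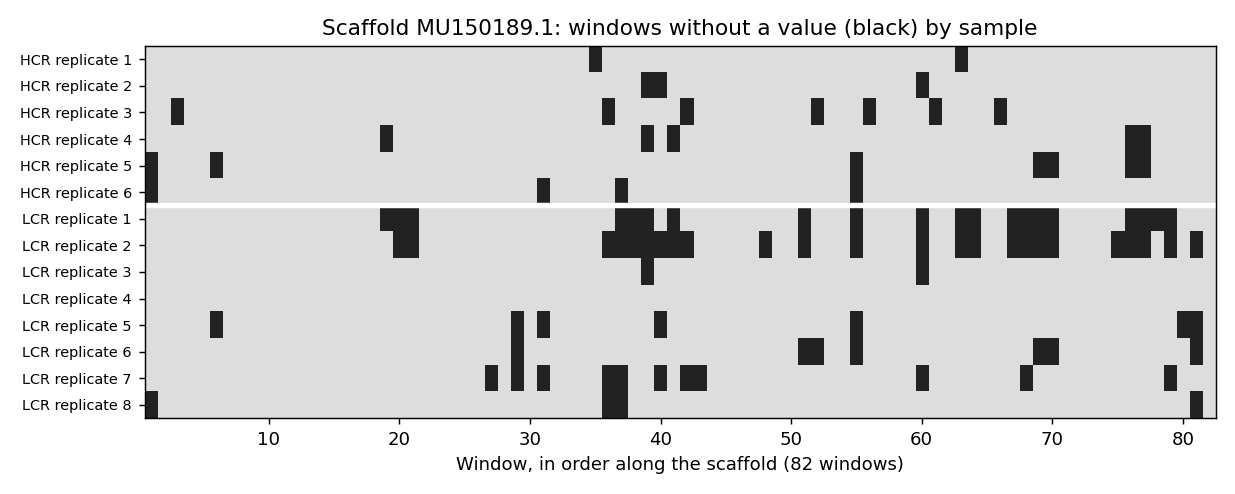
Windows of MU150189.1 in order along the scaffold (x axis) by sample (y axis, HCR above LCR); black marks a window without a value. LCR replicates 1 and 2 lack 20 and 24 of the 82 windows, 18 of them shared, and LCR replicate 4 lacks none.

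HCR samples had their nearest sample in their own line more often on unplaced scaffolds than on autosomes, as counts without a test. The distance between 2 samples was the mean absolute difference over common windows. On unplaced scaffolds the nearest sample was of the same line for 5 of 6 HCR and 8 of 8 LCR samples. On autosomes it was of the same line for 0 of 6 HCR and 8 of 8 LCR samples. There each HCR sample was nearest to LCR replicate 1 or 4, the libraries that lacked the fewest autosomal windows (1.45% and 1.40%). Whether this bears on the count was not tested. Without the 2 called windows the count for HCR on unplaced scaffolds was 3 of 6. Mean distances between lines were 6.02 points on unplaced scaffolds and 6.02 points on autosomes. Within HCR they were 5.58 points on unplaced scaffolds and 5.91 points on autosomes, and within LCR they were 5.53 points on unplaced scaffolds and 5.51 points on autosomes. The closest samples, LCR replicates 5 and 8, differed by 4.39 points, so no library was present under 2 names.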

How the data were processed

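Per the labels' protocols, RRBS libraries were made from soleus DNA with a Diagenode kit after MspI digestion, with bisulfite conversion and PCR on pools. Per the submitters' processing notes, FastQC, Trim Galore 0.6.10, Bismark and Bowtie2 were used with rn7. The authors deposited percent methylation per window and library. The sources used here do not give the coverage minimum, the windowing tool, how reads with several positions were treated, or when a window was left empty. Depth is unknown, and each window has values in at least 4 samples per line. Columns were matched by library name; 0 sample columns were left unused.

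Levels were transformed to log2((level + 0.01)/(1 - level + 0.01)) and compared over all 194367 windows with limma 3.58.1 in R 4.3.3 (line as only factor, variance trend, Benjamini-Hochberg), missing values left out. The procedure was checked on simulated data. Exact permutation tests used numpy 2.4.6 and pandas 2.3.3 in Python 3.11.15. The members and lists were chosen with earlier results of these data known. Named scaffolds are the 10 with most windows, and, with at least 3 common windows, the 3 highest, 3 lowest and 3 with the largest difference each way. Named windows are those called, those of smallest p up to 3 a direction, and the 3 with the widest range. Others named were chosen after their values were seen. Alternatives are given at the end. Same-numbered HCR and LCR samples are tied by no label, and their deviations from the line means were close to uncorrelated over common windows.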

Additional observations from a re-analysis of the deposited data

Results flagged for a closer look

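Single samples far from the rest of their line were looked for in 52 sets of values, covering library means, missing shares, named scaffolds and named windows. They were found in 5 sets. Chance alone flags about 1 in 20 sets that are independent and not chosen by their values. The sets here overlap and some were named for extreme values, so the count cannot be set against that rate. HCR replicate 3 lacked a value in 11.2% of the unplaced windows, and the other HCR samples in 3.72% to 6.02%. On MU150189.1 the mean level of HCR replicate 6 was 44.9%, and those of the other HCR samples were 43.9% to 44.2%. On JACYVU010000493.1 HCR replicate 1 had 58.9%, and the other HCR samples had 54.7% to 55.7%. In the called window at 61001 to 62000 on MU150189.1 LCR replicate 7 had 73.3%, and the other LCR samples had 85.5% to 95.02%. In the window at 1018001 to 1019000 on that scaffold HCR replicate 4 had 10%, and the other HCR samples had 57.3% to 81.3%.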

How the results depend on the processing

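The count of 2 called windows was 1 with untransformed levels, without moderation of the variance, with quantile normalization and with each library's count of empty windows as a covariate. It was 1 among the samples numbered 1 to 6 and 1 with LCR replicates 1 and 2 left out, both added after seeing the data. With a replicate block on these 12 samples it was 0, and 37 windows of the whole table were called, against 454 without the block. Same-numbered samples correlated at -0.0314 to 0.0339 in their deviations from the line means over common windows. A correlation over all windows cannot exclude a tie that touches only some of them, and no label gives one. Leaving out each sample gave 1 to 2 calls. The window of JACYVU010000704.1 was called in 26 of 27 other settings and that of MU150189.1 in 6. The difference in mean level was 1.13 points by the median over windows and -0.405 to 0.342 points with each sample left out, and the share of missing values differed by -1.30 to 0.812 points. The count of scaffolds passing the exact test was 0 to 0 with each sample left out and 0 in the other settings. Ratios of spread stayed within 1.5 times their value in all settings run. Depth is unknown, which limits every single window.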
